A study of Mus musculus with 5 samples.

Results

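Large peritoneal macrophage identity genes are described here as a fixed list of 7 genes, Gata6, Cd5l, Naip1, Fcna, Padi4, Wfdc17 and Ednrb, matched by symbol in a table of raw counts that holds 21617 genes in 41191 mouse cells. All 7 were found. The genes were followed across the myeloid subclusters (C1 to C10) of the deposited annotation, in 5 single-cell 3' libraries with 1 library per group. The control library, labelled Control, holds peritoneal macrophages called out by thioglycollate, a broth that draws monocytes and macrophages into the cavity. The other libraries hold foreign body granulomas, the tissue that forms around an implant, labelled Sponge_2 wks, Sponge_4 wks, Silk_2 wks and Silk_4 wks after the implant and its age. Values of the granulomas are given in that order unless a library is named. Strain, sex, age and the number of pooled animals are not stated in the labels. The control cells are elicited, so no library of an untouched peritoneal cavity was analysed here, and the control and the granulomas differ in body site as well as in exposure, which cannot be told apart.

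Large peritoneal macrophages are the long-lived resident macrophages of the peritoneal cavity. The transcription factor GATA6, induced by retinoic acid from the cavity's mesothelial and stromal lining, holds much of their gene programme. After an irritant such as thioglycollate these cells become hard to recover, and monocyte-derived macrophages fill the cavity. Among the other genes, Cd5l codes for the secreted scavenger protein AIM (also called Spα), Fcna for ficolin-A, a secreted pattern-recognition lectin that starts the lectin complement pathway, and Naip1 for a cytosolic sensor of bacterial type III secretion needle protein that acts with NLRC4. Padi4 codes for a peptidylarginine deiminase that turns arginine into citrulline in histones and is best known in neutrophils, Wfdc17 for a small secreted WAP-domain protein, and Ednrb for the endothelin receptor type B.

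In GRCm38 coordinates of the GENCODE M21 annotation, Cd5l spans chr3:87357881-87371073 on the forward strand. Naip1 lies at chr13:100407764-100452869, Fcna at chr2:25624666-25628030 and Padi4 at chr4:140745865-140774236, all 3 on the reverse strand. Wfdc17 lies at chr11:83703991-83706268 on the forward strand and Ednrb at chr14:103814625-103844402 on the reverse strand. The RefSeq promoter table (GRCm38.p6) held 6 of the 7 genes. Stretches upstream of 4 of them are printed. Cd5l and Fcna were also found in a granuloma subcluster (C5) in which Naip1 and Padi4 had few or no UMIs in most libraries. Each runs 5′ to 3′ on the gene's strand, from 250 bases before the RefSeq start to the last base outside the GENCODE gene, and capitals mark matches, on either strand, to the letters known from sites of GATA factors (TGATAA), of the myeloid factor PU.1 (GAGGAA) or of the MAF family (TGCTGA).
Cd5l, chr3:87357631-87357880: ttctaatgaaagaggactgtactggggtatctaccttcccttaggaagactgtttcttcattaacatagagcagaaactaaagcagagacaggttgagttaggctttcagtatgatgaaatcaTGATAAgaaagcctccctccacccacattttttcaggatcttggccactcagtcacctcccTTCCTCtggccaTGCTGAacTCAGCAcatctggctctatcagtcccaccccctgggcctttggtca
Fcna, chr2:25628031-25628224: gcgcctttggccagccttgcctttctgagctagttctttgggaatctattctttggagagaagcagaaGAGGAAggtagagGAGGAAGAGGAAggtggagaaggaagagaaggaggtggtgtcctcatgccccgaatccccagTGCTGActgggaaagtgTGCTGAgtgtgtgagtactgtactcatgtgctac
Naip1, chr13:100452870-100453114: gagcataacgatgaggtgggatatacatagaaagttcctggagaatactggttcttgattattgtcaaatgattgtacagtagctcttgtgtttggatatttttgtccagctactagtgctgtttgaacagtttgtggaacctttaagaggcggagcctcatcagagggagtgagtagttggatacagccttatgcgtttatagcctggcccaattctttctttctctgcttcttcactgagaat
Padi4, chr4:140774237-140774453: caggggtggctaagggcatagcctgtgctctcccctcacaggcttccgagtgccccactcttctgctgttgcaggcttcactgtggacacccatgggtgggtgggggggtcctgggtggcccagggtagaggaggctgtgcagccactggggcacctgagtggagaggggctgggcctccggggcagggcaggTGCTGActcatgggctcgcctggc

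Within the 250 bases before the start, TGCTGA occurred in 4 of the 6 genes, Cd5l, Fcna, Padi4 and Ednrb, against 16.1% of the 32851 promoters in the table. GAGGAA occurred in Cd5l, in Fcna 3 times and in Wfdc17, against 23.3% of all promoters. The matches of Ednrb and Wfdc17 lie inside the GENCODE gene, because their RefSeq starts are 701 and 65 bases within it. TGATAA occurred in Cd5l only (7.94% of all promoters), and another form known for the same factors, AGATAA, in none of the 6 (9.99%). TTGCNNAA, known from C/EBP sites, was in none of the 6 either (9.56%). The searches covered both strands, and the adjoining GAGGAA matches of Fcna do not share bases. These matches are letters in a window and show no binding.

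Depth differed between libraries. The control held 9039 cells and 80521014 unique molecular identifiers (UMIs, 1 per captured RNA molecule), and the granulomas held 1873 to 12347 cells with 11207419 to 96066597 UMIs. Levels below are counts per 1000000 (CPM) of summed UMIs over the monocyte and macrophage class without C9, whose cells held dendritic cell markers at 1107 to 2669 CPM. That left 7783 control cells with a median of 7749 UMIs and 7113, 4605, 7350 and 1045 granuloma cells, with medians of 3078 to 4729 UMIs. The 6 macrophage markers were all present, at 21440 CPM in the control class and 12520 to 18700 CPM in the granulomas. Cell barcodes that occur in more than 1 library belonged to 306 cells. C1 made up 81.9% of the control's myeloid cells and at most 2.26% in a granuloma, C5 held 18.3% and C4 34.2% in sponge at 2 weeks, and C7 held 43.0% to 59.2% in the other granulomas. All intervals are 95% intervals that cover counting error only. With 1 library per group no test between groups was possible.

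Every identity gene was lower in the macrophages of each granuloma than in the elicited peritoneal macrophages. All 7 were at least 2-fold lower in all 4 granulomas, where 5.22% of the 12785 genes with at least 20 UMIs over both libraries of each pair were. With a stricter limit of 100 UMIs and 50 CPM in the higher library and 10 CPM added, which Gata6 and Naip1 miss, the other 5 passed in all 4, against 2.79% of 3157 genes. A member that passes either limit only through the control had to be lower in the granulomas, as with Gata6 at 189 control UMIs and 5, 7, 4 and 2 granuloma UMIs, so both counts are descriptions. In the single comparisons the share of all genes at least 2-fold lower was 11.3% to 12.8% (12.6% and 11.7% for sponge, 12.8% and 11.3% for silk) at the looser limit. The median log2 ratio of all genes to the control was -0.14, -0.04, -0.06 and -0.07, so the members' ratios are far from the general shift.

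Gata6, the transcription factor (chr18:11052064-11085635, forward strand), was rare even in the control. Its level was 2.54 CPM (2.19 to 2.93, 189 UMIs) in control macrophages, 0.119 CPM (5 UMIs) in sponge at 2 weeks and 0.336 CPM (7 UMIs) in sponge at 4 weeks. It stood at 0.0937 CPM (4 UMIs) in silk at 2 weeks and 0.315 CPM (2 UMIs) in silk at 4 weeks. The control is above every granuloma by its interval, and the 4 granulomas, with so few molecules, are not told apart. The log2 ratios to the control were -4.29, -2.82, -4.60 and -2.69, with intervals reaching from -6.65 to -1.14. With every cell thinned to 1000 UMIs the 4-week silk ratio was -0.72, so Gata6 was then less than 2-fold lower there.

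Cd5l had the widest range of the list. Its control level was 264.7 CPM (261 to 268.4), and the granulomas followed at 19.3, 6.48, 3.89 and 0.473 CPM. These 5 levels have intervals that do not overlap, although the 4-week silk value rests on 3 UMIs. The log2 ratios to the control were -3.78 (-3.88 to -3.68), -5.35 (-5.61 to -5.11), -6.08 (-6.32 to -5.87) and -8.91 (-11.41 to -7.58). Without cells that hold 2 or more UMIs of another class's markers, the 2-week sponge ratio was -5.19, and without C5 the 4-week sponge ratio was -7.38.

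Fcna, the other secreted recognition protein, stood at 219.3 CPM in the control. It stood at 13.7, 5.52, 5.22 and 8.04 CPM in the granulomas, with log2 ratios of -4.00 (-4.13 to -3.88), -5.31, -5.39 and -4.75 (-5.19 to -4.37). The interval of sponge at 4 weeks overlaps those of both silk libraries, and sponge at 2 weeks was the highest granuloma.

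Naip1, the inflammasome sensor, followed another order among the granulomas. The control reached 15.1 CPM (14.3 to 16), the sponge libraries 0.498 and 0.768 CPM, and the silk libraries 2.04 and 1.58 CPM. Both silk libraries are above both sponge libraries in value, but the 4-week intervals overlap. The log2 ratios to the control were -4.89 (-5.62 to -4.31), -4.25, -2.88 (-3.22 to -2.58) and -3.19. Without cells holding markers of another class the 2-week sponge ratio was -8.05, a value set by the added 0.5 counts, because those cells held all 21 of its UMIs there. Its close relatives differed less: control and granuloma levels were 50.7 and 24.4 to 43.7 CPM for Naip2, 21.4 and 13.4 to 20.7 CPM for Naip5, and 14.4 and 9.46 to 11 CPM for Naip6. None of the 411 windows of 90 bases in the last 500 bases of the Naip1 transcript was found in Naip2, Naip5 or Naip6, which bears on how far 3' reads of the copies could mix.

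Padi4 had a control level of 82.3 CPM and granuloma levels of 4.98, 1.78, 2.13 and 1.89 CPM. The log2 ratios were -4.04 (-4.25 to -3.85), -5.51, -5.26 and -5.38 (-6.40 to -4.64), and the last 3 granulomas have overlapping intervals.

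Wfdc17 was the most widely detected of the list, with a UMI in 97.3% of control macrophages and 30.6% to 67.4% of granuloma macrophages. Its level was 3654 CPM in the control, 1065 CPM in sponge at 2 weeks, and 231.2, 309.5 and 227.1 CPM in the later sponge and the silk libraries. The log2 ratios to the control were -1.78 (-1.79 to -1.76), -3.98, -3.56 and -4.01. Ednrb, the receptor, had the same shape, with 255.8 CPM in the control, 78.2 CPM in sponge at 2 weeks and 18.2, 17 and 14 CPM in the other granulomas. Its log2 ratios were -1.71 (-1.76 to -1.66), -3.81, -3.91 and -4.18, and without C5 the 2-week sponge ratio was -3.32. For both genes the 2-week sponge library lies apart from the other granulomas, which lie close together.

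**Figure D1:**
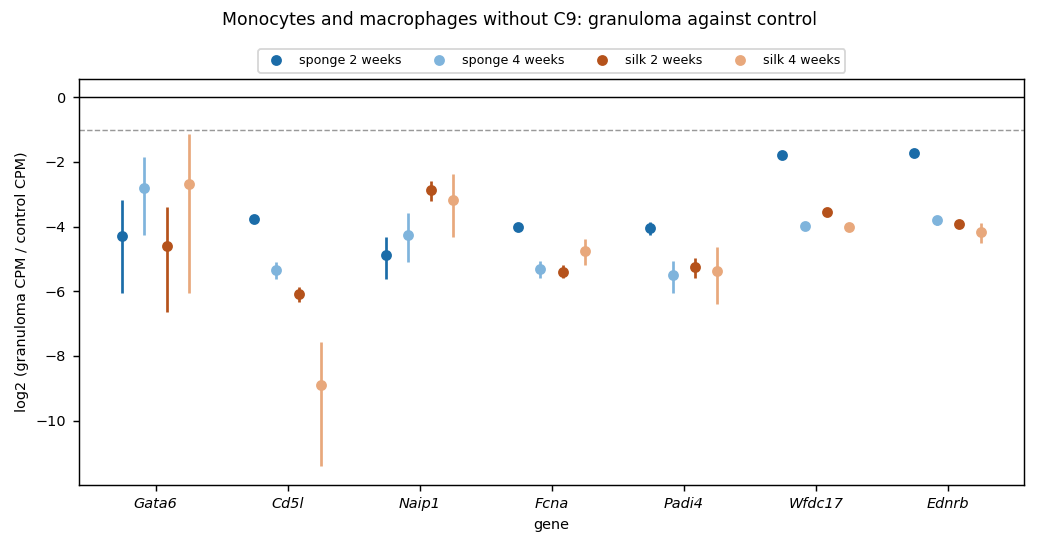
The vertical axis is the log2 ratio of each granuloma's CPM to the control's for the 7 genes, with points per library and lines for 95% counting intervals; the dashed line marks a 2-fold lower level. All 28 points lie below the dashed line, Wfdc17 and Ednrb in sponge at 2 weeks are nearest to it at -1.78 and -1.71, and Cd5l in silk at 4 weeks is farthest at -8.91.

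Inside the control library the 7 genes shared a home, C1. In its 6476 cells Gata6 stood at 3.28 CPM, Cd5l at 334.2, Naip1 at 17.9, Fcna at 280.2, Padi4 at 104.4, Wfdc17 at 4306 and Ednrb at 323.7 CPM. The 706 cells of C2 held less of each, with 0.0738 CPM of Gata6 (1 UMI), 52 of Cd5l, 6.27 of Naip1, 30.7 of Fcna, 14.1 of Padi4, 1578 of Wfdc17 and 40.3 of Ednrb, at a higher median depth (16763 against 7351 UMIs). C10, 550 cells, was lower again for Cd5l (10 CPM) and Fcna (14.1 CPM) and held Wfdc17 at 1629 CPM and Ednrb at 55.5 CPM. Because the subclusters were drawn from these same cells, the differences between them are descriptions.

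Free RNA and mixed droplets set a background for the lower values. Control B cells, which should lack these genes, held Cd5l at 41.5 CPM, Fcna at 44.9, Ednrb at 46.2, Padi4 at 15.3 and Wfdc17 at 861.9 CPM, or 15.7% to 23.6% of the level of control macrophages for these 5 genes. In B cells with fewer than 4 of the 7 genes, Cd5l was at 14.2 CPM, Fcna at 8.91 and Padi4 at 3.34 CPM. Control NK/T cells were higher than B cells, with Cd5l at 78.3 CPM, Fcna at 86.2, Ednrb at 66.5, Padi4 at 19.8 and Wfdc17 at 1013 CPM, or 24.0% to 39.3% of the level of control macrophages. The C10 levels of Cd5l, Fcna and Padi4 (10.3 CPM) and the C2 levels of Fcna, Padi4 and Ednrb lie under those of all control B cells and are not read as expression. The C2 level of Cd5l (52 CPM) and the C10 level of Ednrb (55.5 CPM) lie above B cells but under NK/T cells, and are not read as expression either. NK/T cells with fewer than 4 of the genes held Cd5l at 18.55 CPM, Ednrb at 36.2 and Padi4 at 2.65 CPM. Such B cells held Ednrb at 18.1 CPM. The C2 levels of Cd5l, Ednrb and Padi4 and the C10 levels of Ednrb and Padi4 lie above both of these sets. The reading thus depends on the lymphocytes used as background, and expression in C2 or C10 was not tested. In the granulomas NK/T cells held Ednrb at 8, 4.10, 5.76 and 2.52 CPM, Fcna at 0.533, 1.03, 4.61 and 0 CPM, and no UMI of Cd5l. A UMI of Cd5l was found in 45.7% of C1 cells and in 7.39% of control B cells, whose median depths were 7351 and 4513 UMIs.

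Even within C1 the genes were uneven from cell to cell. The tenth of C1 cells richest in a gene held 60.6% of the Cd5l UMIs, 62.9% of Fcna and 54.2% of Padi4, against 41.4% of Wfdc17 and 40.9% of Ednrb. The median C1 cell held no UMI of Cd5l, Fcna or Padi4, while single cells held up to 89 UMIs of Cd5l and 80 of Fcna. Wfdc17 and Ednrb were thus spread over most of the subcluster, with a UMI in 97.3% and 66.9% of its cells, and Cd5l, Fcna and Padi4 over 45.7%, 46.1% and 38.6%.

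A UMI of Gata6 itself was found in 133 of the 6476 C1 cells (2.05%), which were deeper than the others (median 14497 against 7267 UMIs). In these cells a wider list of 23 large peritoneal macrophage genes separated from the members. Of the 22 with at least 20 UMIs, 17 were at least 2-fold higher in cells with a Gata6 UMI and none 2-fold lower, with a median log2 ratio of 3.16. Of all 12068 genes with at least 20 UMIs in these C1 cells, 6.83% were at least 2-fold higher. Of the 6 other members, only Cd5l was at least 2-fold higher, at 661.4 against 319.8 CPM, and the median log2 ratio was 0.60. Padi4 stood at 185.2 against 100.8 CPM, Naip1 at 33.3 against 17.2, Fcna at 338.9 against 277.7 and Wfdc17 at 5366 against 4260 CPM. Ednrb was the exception in direction, at 241.6 against 327.3 CPM.

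Among the wider list's best expressed genes, Saa3, an acute-phase serum amyloid, stood at 7515 against 484.6 CPM and Slpi, a protease inhibitor, at 1868 against 90.6 CPM. F10, coagulation factor X, stood at 320 against 89.98 CPM, whereas Ecm1 (398.7 against 218.2), Adgre1 (548.1 against 441.1) and Cd93 (456.8 against 514.2) were less than 2-fold apart. Picked after their values were seen, the lipoxygenase gene Alox15 stood at 50.5 against 2.13 CPM, Prg4 (lubricin) at 228.6 against 15.6, Vsig4 at 153.2 against 13, Timd4 at 25.7 against 2.78 and Tgfb2 at 109 against 9.10 CPM. Among cells of at least 10000 UMIs, 17 of 21 of the wider list, 0 of 6 members and 5.19% of 11416 genes were at least 2-fold higher. Naip1 (1.98-fold) and Cd5l (1.96-fold) lay just under that limit, and 5 of the 6 members were higher at all. The median log2 ratio was 2.83 for the wider list and 0.60 for the members, so the split was also present among deep cells. Depth was not matched there either, with medians of 22447 UMIs in 87 cells with and 13482 UMIs in 1863 cells without a Gata6 UMI. Cells with a UMI were picked by Gata6, and these are values of 1 library, with no test.

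**Figure D2:**
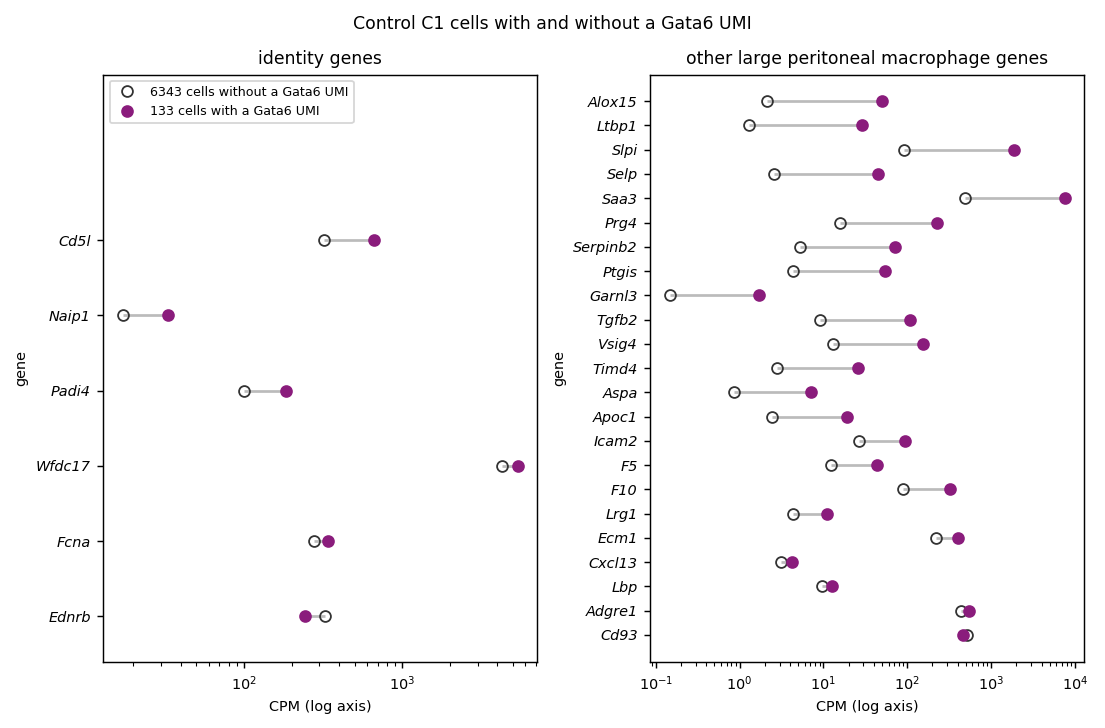
Horizontal axes give CPM on a log scale for control C1 cells with (filled) and without (open) a Gata6 UMI, for the other 6 identity genes on the left and the wider list on the right, ordered by the ratio. The identity genes' points lie close together, 661.4 against 319.8 CPM for Cd5l at most, while Alox15 at the top of the right panel runs from 2.13 to 50.5 CPM.

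In the granulomas the genes parted into those that C5 held and those it did not. The control has no C5 cell, and the granulomas have 1357, 438, 104 and 35. Ednrb stood in C5 at 330.7, 129, 164.3 and 511.2 CPM, around the 323.7 CPM of control C1. Fcna stood at 50.6, 33.7, 95.6 and 313.3 CPM, against 280.2 CPM in control C1. Wfdc17 stood at 1894, 899.1, 1751 and 618.4 CPM, all below control C1.

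Cd5l was present in C5 at 33.5, 66.7 and 20.9 CPM in the first 3 libraries and had 0 UMIs in the 35 cells of silk at 4 weeks, a depth that allows up to 24.7 CPM. Its 105 UMIs in C5 of sponge at 4 weeks came from 3.20% of the cells. Padi4 stood at 13.2, 1.91 and 2.99 CPM and at 0 UMIs. Naip1 had 4, 1, 0 and 0 UMIs and Gata6 1, 0, 0 and 0 UMIs in C5, so neither exceeded 0.635 CPM where it was seen. In C5 of silk at 4 weeks 0 UMIs allow up to 24.7 CPM of either gene. That is above the 17.9 CPM of Naip1 in control C1, so a lower Naip1 level is not shown there. C5 also held the 6 macrophage markers, at 11180 to 14330 CPM, and fibroblast markers at 173.2 to 640.5 CPM, whose part in these levels was not tested.

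C5 held a larger share of the Ednrb, Fcna and Wfdc17 molecules than of the cells in all 4 granulomas. In sponge at 2 weeks C5 was 19.1% of the macrophages and held 72.9% of their Ednrb UMIs, 63.8% of Fcna, 45.7% of Padi4 and 30.1% of Cd5l. In silk at 4 weeks it was 3.35% of the macrophages and held 74.5% of Fcna and 69.7% of Ednrb, although that is 38 and 62 UMIs. Padi4 did not follow outside the 2-week sponge, since C5 held 8.11% of its UMIs and 9.51% of the cells in sponge at 4 weeks, 1.10% and 1.42% in silk at 2 weeks, and no Padi4 or Cd5l UMI in silk at 4 weeks. Outside C5, Cd5l was higher in C8 than in C5 at 2 weeks, at 68.9 against 33.5 CPM in sponge and 38 against 20.9 CPM in silk. In C7, the main one outside the 2-week sponge, Fcna stood at 8.60, 3.71, 4.93 and 2.16 CPM and Ednrb at 11.1, 5.50, 13.5 and 1.94 CPM. In C3, which had 0 UMIs of Fcna in all 4 granulomas, Padi4 stayed between 10.8 and 13.7 CPM, above C5 in every granuloma other than sponge at 2 weeks.

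**Figure D3:**
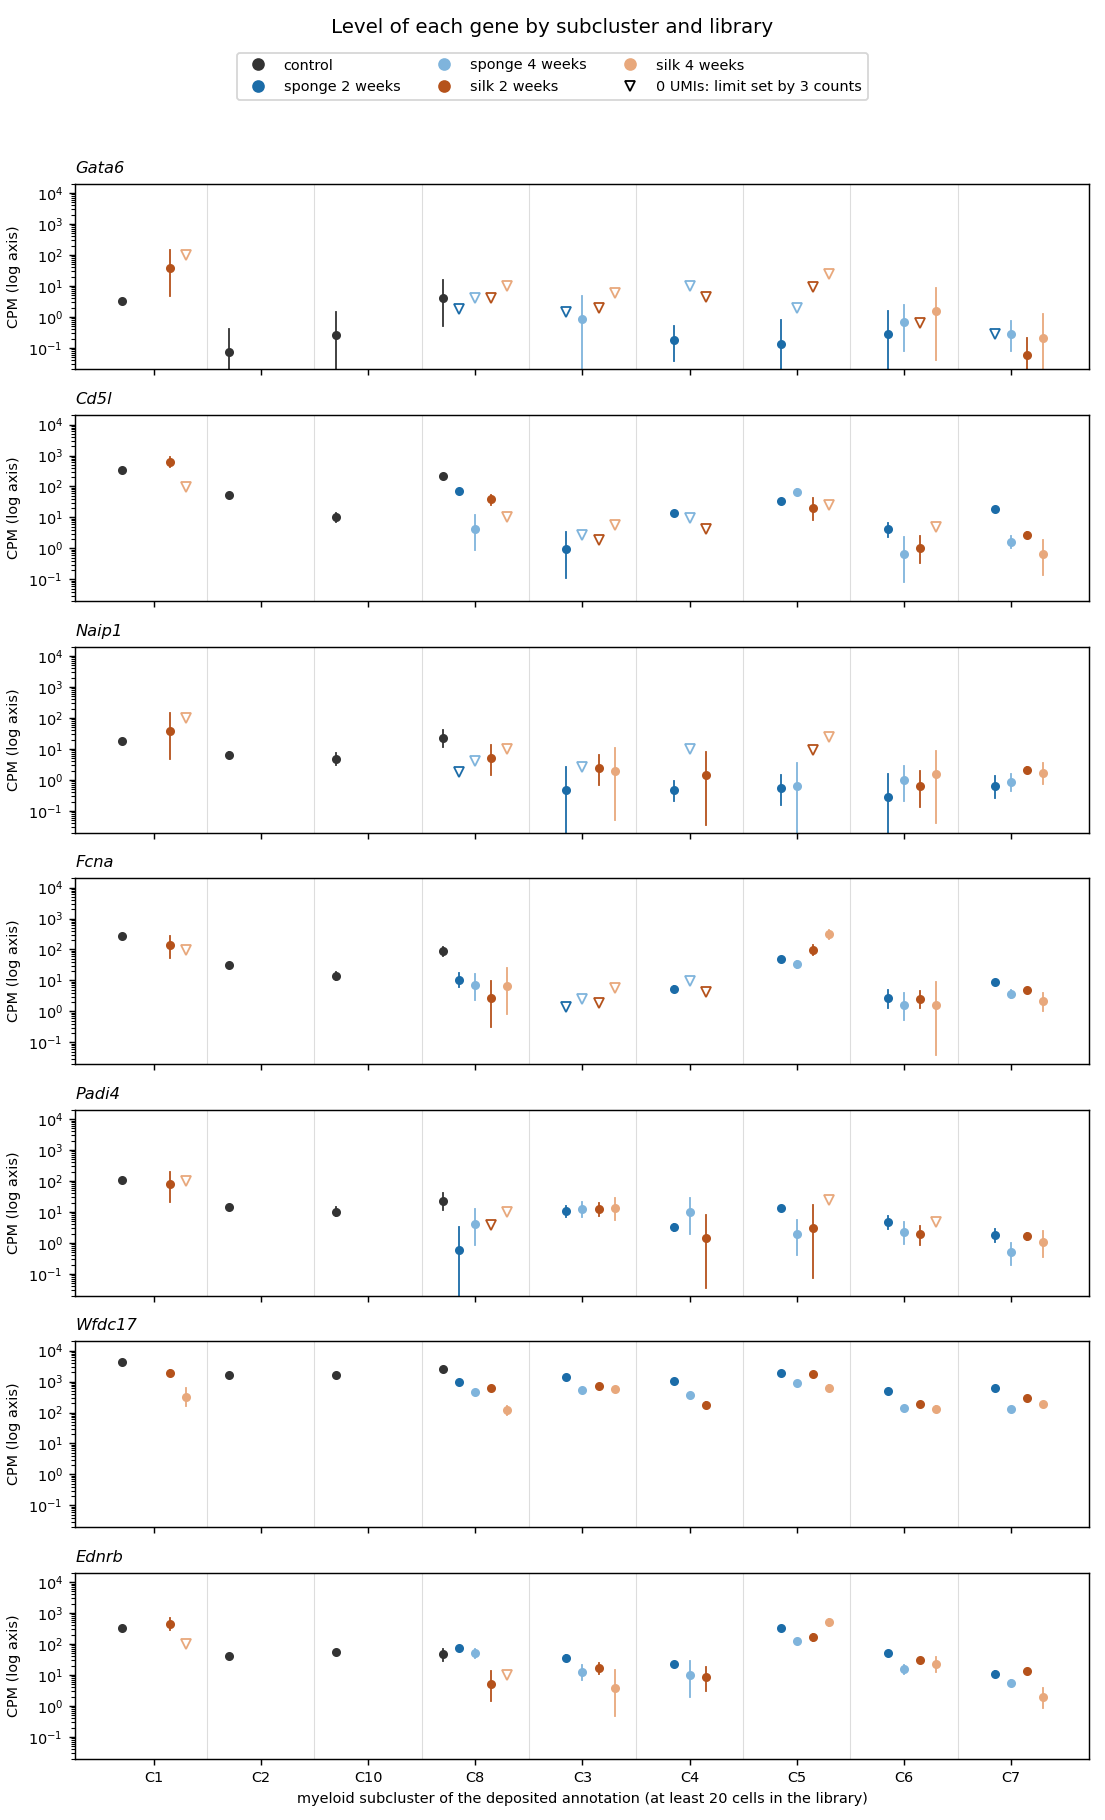
Each panel plots 1 gene's CPM on a log axis by myeloid subcluster, with points for libraries, lines for 95% counting intervals (ending at the lower axis limit where they pass it) and open triangles for the limit that 0 UMIs allow. Control C1 is high in all panels, and among granuloma subclusters C5 holds Ednrb at 129 to 511.2 CPM and Fcna at 33.7 to 313.3 CPM.

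Outside C9, C8 was the only subcluster with at least 20 cells in the control (27) and in each granuloma (133, 90, 61 and 24), and its control cells are below the 50 set for a comparison. Cd5l of C8 was at 211.9 CPM in the control, at 68.9 and 4.16 CPM in the sponge libraries, at 38 CPM in the younger silk granuloma and at 0 UMIs in the older. Against the control, 4 members had at least 20 UMIs. Of these, 3, 3, 4 and 4 were at least 2-fold lower in the granulomas, where 9.68%, 7.86%, 9.12% and 10.3% of genes were. The exception in both sponge libraries was Ednrb, at 74.9 and 50 CPM against 46.2 CPM in the control. The control's 22 Ednrb UMIs in C8 make its interval wide. That control level equals the one of control B cells (46.2 CPM) and lies under NK/T cells (66.5 CPM), so it is not read as expression. It lies above B and NK/T cells with fewer than 4 of the genes (18.1 and 36.2 CPM), and its source was not tested.

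C9, left out of the class for its dendritic cell markers, had 129 control cells and 317, 229, 182 and 61 granuloma cells. Wfdc17 was not lower in the granulomas there, at 302.2 CPM in control C9 and 718, 338.3, 621.4 and 329.1 CPM in the sponge and silk libraries in that order. The other 6 genes were at or under 12.4 CPM in C9 of all 5 libraries. Mast cell and basophil markers summed to 4571 CPM in control C9 and to 489.3, 333.8, 67 and 77.1 CPM in the granulomas, so C9 differed in its makeup between libraries, and the part of this in the Wfdc17 values was not tested.

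C1 itself held 26 cells in silk at 2 weeks and 25 in silk at 4 weeks, with median depths of 840 and 929 UMIs. In silk at 2 weeks 2 of the 26, singled out after their values were seen, carried nearly all the members' UMIs. With 7807 and 6878 UMIs, they held 17 and 15 UMIs of Cd5l, 1 and 1 of Gata6, 13 and 10 of Ednrb, 2 and 4 of Fcna, 2 and 2 of Padi4 and 37 and 41 of Wfdc17, and 1 held 2 UMIs of Naip1. They also held 41 and 34 UMIs of Prg4, 3 and 5 of Timd4, 8 and 8 of Vsig4 and 36 and 46 of Saa3. The other 24 cells together held 1 UMI of Fcna, 21 of Wfdc17 and none of the other members. Those 2 cells held 2 of the 4 Gata6 UMIs and 32 of the 166 Cd5l UMIs of the library's macrophages. Without them the 2-week silk log2 ratio of Gata6 to the control was -5.44.

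Co-detection within cells gave the same contrast between control and granulomas. At least 3 of the 7 genes had a UMI in 54.3% of control macrophages (53.2% to 55.4%), and in 4.72%, 0.717%, 0.612% and 0.766% of granuloma macrophages. Thinning each cell to 1000 UMIs dropped 345 shallower control cells and 192 to 642 per granuloma, and the shares became 16.9%, 0.513%, 0.0755%, 0.0447% and 0.235%. Control B cells and NK/T cells gave 6.32% and 5.18% before thinning and 0.690% and 1.13% after it. At least 5 of the 7 genes were seen in 1436 control macrophages and in 6 granuloma macrophages, the 2 silk cells of C1 and 4 cells of sponge at 2 weeks, 3 of C5 and 1 of C7. Those 4 held no UMI of Gata6, Naip1, Prg4 or Timd4. C5 of sponge at 2 weeks held at least 3 genes in 17.9% of its cells before thinning and 2.25% after.

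**Figure D4:**
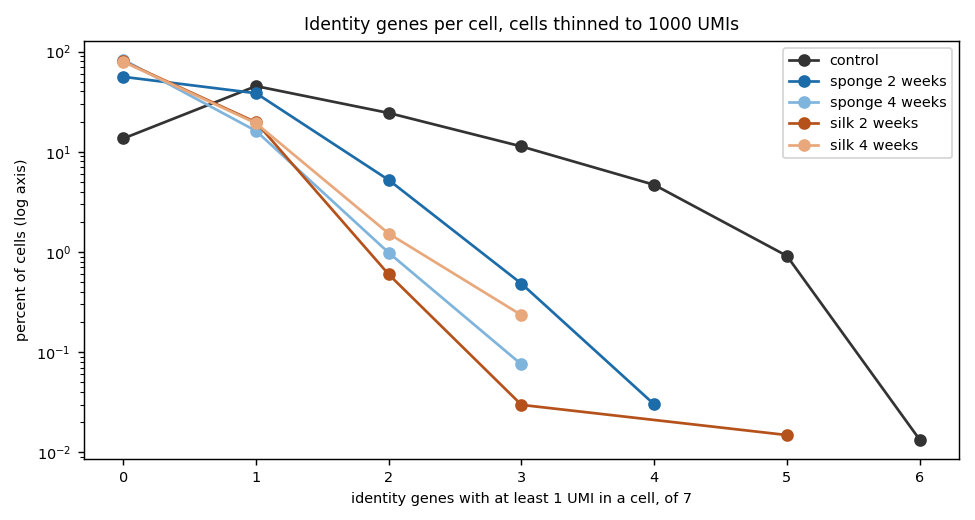
The horizontal axis counts how many of the 7 genes have a UMI in a macrophage thinned to 1000 UMIs, and the vertical axis is the percent of cells on a log scale, by library, with points at 0 cells left out. The control has 13.6% of its cells without any of the genes and the granulomas 55.9% to 82.8%, and beyond 2 genes all granulomas lie under the control.

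Between materials at the same time, 6 members had at least 20 UMIs over the compared libraries, all but Gata6. At 2 weeks 5 of the 6 were at least 2-fold lower in silk than in sponge, where 8.47% of all genes were, and Naip1 was at least 2-fold higher, where 3.58% were. The log2 ratios of silk to sponge were -2.30 (-2.56 to -2.06) for Cd5l, -2.20 (-2.32 to -2.09) for Ednrb, -1.78 for Wfdc17, -1.39 for Fcna, -1.22 for Padi4 and 2.01 (1.33 to 2.80) for Naip1. C5 was 18.3% of the myeloid cells of that sponge library and 1.38% of those of silk. Without C5, 2 of the members were at least 2-fold lower, with Ednrb at -0.69, Fcna at -0.41 and Padi4 at -0.62. The share of all genes lower without C5 was not taken, so this count has no background beside it.

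At 4 weeks Cd5l alone was at least 2-fold lower in silk, at -3.56 (-6.07 to -2.20), with 4.09% of all genes lower, and Naip1 was higher at 1.06 (-0.26 to 2.27), with 2.03% of all genes higher. The interval of Naip1 includes 0. Wfdc17 differed by -0.03 (-0.11 to 0.06) and Padi4 by 0.13 (-0.98 to 1.06), so Wfdc17 was within 1.1-fold by its counting interval and Padi4 could lie about 2-fold either way. Fcna was higher in silk by 0.55 (0.04 to 1.03) at this time, opposite to its direction at 2 weeks, and the difference was not tested.

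Within C7, which holds many cells of all 4 granulomas, Cd5l and Wfdc17 were lower in silk at 2 weeks, at -2.80 (-3.18 to -2.45) and -1.13 (-1.17 to -1.08). These were 2 of 6 members, with 3.77% of genes lower. Naip1 was higher in silk within C7, at 1.62 (0.59 to 3.07), and Ednrb stood at 0.28 (-0.01 to 0.59). Naip1's higher value in silk at 2 weeks was therefore also present inside C7, while that of Ednrb in sponge was not present there. Within C8, Fcna and Ednrb were at least 2-fold lower in silk at 2 weeks, 2 of 4 members, with 6.59% of genes lower. The silk C8 cells held only 4 Ednrb UMIs.

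Over time in sponge, 5 of 6 members were at least 2-fold lower at 4 than at 2 weeks, with 6.16% of genes lower, and Naip1 stood at 0.64 (-0.41 to 1.63). Wfdc17 and Ednrb differed most, at -2.20 (-2.25 to -2.16) and -2.10 (-2.26 to -1.95), followed by Cd5l at -1.57, Padi4 at -1.47 and Fcna at -1.30. The same 5 were lower within C7, with 2.41% of genes lower, Cd5l by a log2 ratio of -3.50 (-4.21 to -2.90). In silk only Cd5l was at least 2-fold lower at 4 weeks, at -2.82 (-5.33 to -1.47) from 3 UMIs, with 3.51% of genes lower. Within C7 of silk, 3 of 6 members were at least 2-fold lower at 4 weeks, with 3.93% of genes lower. These were Cd5l at -1.84, Ednrb at -2.72 (-3.94 to -1.86) and Fcna at -1.13 (-2.28 to -0.28), the last against a ratio of 0.63 over all silk macrophages. The silk intervals of Padi4 (-1.18 to 0.70) and Naip1 (-1.48 to 0.58) allow a 2-fold lower level. The time comparisons share libraries with those of material and are not independent of them.

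The higher Wfdc17 level of sponge at 2 weeks was present in each class measured there. Fibroblasts held it at 54.2 CPM in that library and 6.98 to 12.2 CPM in the other granulomas, endothelial cells at 96.5 against 4.53 to 23.7 CPM and NK/T cells at 114.7 against 15.1 to 34.9 CPM. Neutrophils held 2928 CPM there, against 824.9, 831.6 and 1732 CPM. How much of the macrophage value is free RNA from neutrophils or other cells was not tested.

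Outside macrophages 4 members had a level of their own. Gata6 was higher in fibroblasts than in the macrophage class of any library, at 20.8, 26.3, 31.5 and 52.5 CPM in the granulomas, and stood at 7.58 to 14.5 CPM in endothelial cells. In a subcluster deposited as KC, 32 cells of silk at 2 weeks, Gata6 stood at 309.6 CPM with a UMI in 87.5% of the cells. Those cells held all 6 mesothelial markers, at 5178 CPM together, and fibroblast markers at 22170 CPM. Granuloma macrophages held fibroblast markers at 68.5 to 578.5 CPM and control macrophages at 0.659 CPM, and the part of fibroblast RNA in the 2 to 7 Gata6 UMIs of the granuloma macrophages was not tested.

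Padi4 was found in neutrophils at 39.9, 79.5, 52.4 and 57 CPM, above the granuloma macrophages of each library and under the 82.3 CPM of control macrophages. Among neutrophil subclusters N1 held 59.95 to 100.2 CPM. Ednrb stood at 273.3, 219.9, 203.9 and 71 CPM in the class deposited as Myocyte and at 45.6, 85.9, 35.4 and 99.6 CPM in endothelial cells. Cd5l, Naip1 and Fcna were at or under 5.92 CPM in fibroblasts, endothelial cells, neutrophils, NK/T cells and the Myocyte class of the granulomas.

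**Figure D5:**
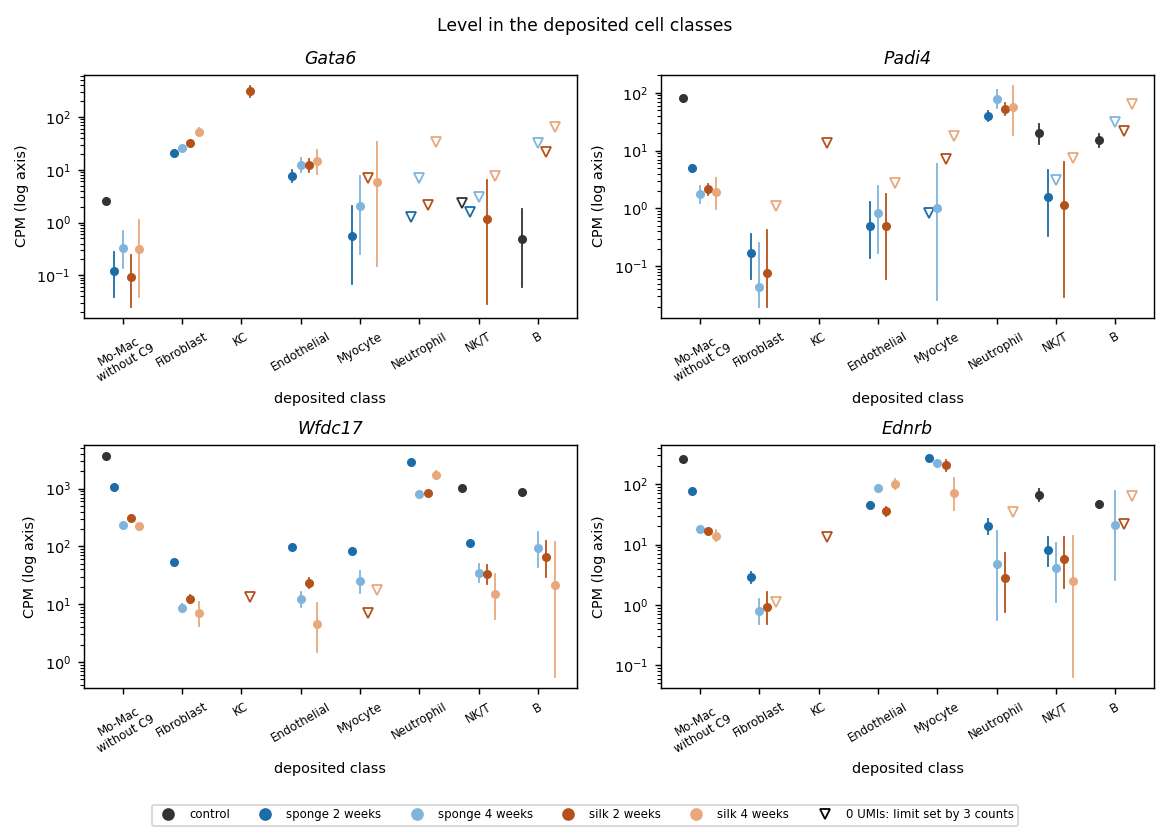
Panels plot the CPM (log axis) of Gata6, Padi4, Wfdc17 and Ednrb by deposited class and library, with 95% counting intervals and open triangles for the limit at 0 UMIs. Gata6 is highest in KC (309.6 CPM) and fibroblasts, Padi4 and Wfdc17 are high in neutrophils as well as control macrophages, and Ednrb is high in the Myocyte class and endothelial cells.

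The partners of the members were counted from lists of related genes. Of the wider large peritoneal macrophage list, 13 of 22, 16 of 23, 17 of 23 and 16 of 22 measured genes were at least 2-fold lower in the granuloma macrophages than in the control, and 3, 1, 4 and 1 were higher. The list's median log2 ratios were -1.43, -2.11, -2.35 and -2.62, against -0.11, -0.02, -0.05 and -0.04 over all genes measured. Cd93 stood at 490.2 CPM in control macrophages against 87.8 to 170.8 CPM, while Ecm1 stood at 198.9 CPM and 260.4 to 408 CPM and Slpi at 131 and 204.5 to 457.4 CPM. Saa3 lay on both sides of its control level of 609.5 CPM, at 1616 CPM in sponge at 2 weeks and 9.08 to 28.8 CPM in the other granulomas.

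Of 19 genes that act upstream of the identity (retinoid receptors and enzymes, and macrophage transcription factors), 5, 5, 4 and 4 were at least 2-fold lower and 4 in each granuloma were higher, of 16 or 17 measured. Control and granuloma levels were 1117 and 265.4 to 491.5 CPM for Klf2, and 771.8 and 1062 to 2592 CPM for Cebpb, a factor required by large peritoneal macrophages. Rarb, a retinoic acid receptor, was named after its values were seen and stood at 15.5 CPM against 1.04 to 7.61 CPM.

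In the NAIP inflammasome list, 0, 2, 0 and 0 of 9 genes were at least 2-fold lower. Control and granuloma levels were 233.3 and 132 to 189.2 CPM for Pycard, the adaptor ASC, and 48.1 and 22.2 to 50.3 CPM for Casp1. Il1b, the cytokine, is not among the 6 genes of this list with the highest control level and is named for its values. It was at 3.11 CPM in control macrophages and between 581.4 and 1824 CPM in granulomas. Of the endothelin list, Edn1, the ligand, was at or under 3.11 CPM in macrophages and at 108.2 to 175.6 CPM in endothelial cells of the granulomas. Ednra, the type A receptor, stood at 124.9 to 308.2 CPM in the Myocyte class. Of the other peptidylarginine deiminases, Padi2 had 9.55 CPM in control macrophages against 5.83 to 18.9 CPM, and Padi3 was at least 2-fold lower in all 4, at 2.65 CPM against 0.609 to 0.960 CPM. Among WAP-domain genes Wfdc18 was at least 2-fold lower in all 4 and Wfdc21 higher in all 4, from 0.175 CPM to 1.97 to 37.1 CPM.

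Of the ficolin and lectin pathway list only Colec12 was measured, at 8.10 CPM (control) against 6.33 to 14.7 CPM. Of 4 or 5 measured scavenger receptor genes, 0, 1, 1 and 1 were at least 2-fold lower, in each case Cd163. Cd36, also on that list, had 963.1 CPM in control macrophages against 1005 to 2167 CPM. Among 13 genes of small peritoneal and recruited macrophages, 4, 4, 7 and 3 were lower and 0, 1, 1 and 5 higher. Across these partner lists some genes were lower and others higher than in the control. At the same limit of 20 UMIs, 11.3% to 12.8% of all genes were at least 2-fold lower in a granuloma. The members were chosen with earlier results of these data known, so their uniform direction is no yardstick for the lists. Whether the lists differ from the members was not tested.

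By correlation of log2(CPM + 10) over 29 profiles of subcluster and library, among 5085 genes searched, the gene most like Cd5l was Fcna (Pearson's r = 0.844), that most like Fcna was Wwp1 (0.888) and that most like Ednrb was Cbr2 (0.901). The histidine ammonia-lyase gene Hal was the most alike to Gata6 (0.612), Naip1 (0.912) and Padi4 (0.843), and Tpr to Wfdc17 (0.771). The profiles share libraries and differ in depth, and Gata6 varied little on this scale. By Spearman's rank correlation Hal stood at 0.226 with Gata6 and 0.577 with Naip1, whereas Fcna stood at 0.905 with Cd5l.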

How the data were processed

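Single cells were captured with 10x Chromium Single Cell 3' v3 kits, per the labels' protocols. Reads were processed by the authors with Cell Ranger 3.0.0 and Seurat 3.0 against mm10, per the submitters' processing notes, and whether doublets were removed is not given in the sources used here. Raw UMI counts per gene and cell make up the authors' deposited count table. The deposited table of cells gives each cell's library, class, subcluster and mitochondrial percent, and was used as given. No cell was removed other than C9 from the macrophage class, and no doublet caller was run.

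UMI counts were summed per library and class or subcluster and given as CPM with exact Poisson 95% intervals. Shares of cells have exact Clopper-Pearson intervals. Log2 ratios have 0.5 counts added and conditional binomial intervals. Where a sum is 0, the limit is set by 3 counts. With 1 library per group no test between groups was made, and cells were not used as replicates. Levels are given for at least 20 cells, ratios within a subcluster for 50 cells in both libraries. Thinning drew 1000 UMIs per cell. The share of all genes called is given at 2 limits, 100 UMIs and 50 CPM in the higher library with 10 CPM added, or 20 UMIs over both libraries. The call scripts were tested on simulated data.

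The members and lists were chosen with earlier results of these data known. Named genes are the 7 members and up to 6 of each list by control level, with others marked where named. Promoters are from RefSeq (GRCm38.p6), positions from GENCODE M21. Alternatives were thinning, C9 kept, 1 count added, scaling to the median ratio, the mean over cells, and leaving out cells by depth, other-class markers, shared barcodes or 10% mitochondrial UMIs. Chosen after seeing the data were leaving out C5 or the 2 silk cells, weighting granulomas to one makeup, cells of at least 10000 UMIs and lymphocytes with fewer than 4 members. The one makeup covers C3, C5, C6, C7 and C8 only, each weighted by its mean share over the granulomas. Python 3.11.15, numpy 2.4.6, pandas 2.3.3, scipy 1.17.1 and matplotlib 3.10.9 were used.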

Additional observations from a re-analysis of the deposited data

Results flagged for a closer look

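Fcna differed in direction between comparisons in the same class of macrophages. Silk against sponge gave a log2 ratio of -1.39 at 2 weeks and 0.55 at 4 weeks. Sponge at 4 against 2 weeks gave -1.30 and silk at 4 against 2 weeks gave 0.63. The counting intervals of all 4 ratios exclude 0, the comparisons share libraries, and the difference between the ratios was not tested. C5 holds 14.4% to 74.5% of the Fcna UMIs of a granuloma's macrophages. Without C5 the ratios at 4 weeks between materials and over time in silk were -0.58 and -1.06. Weighted to one makeup of subclusters they were 2.58 and 1.41, and the ratio between materials at 2 weeks was 0.37. That makeup covers C3, C5, C6, C7 and C8 only. It leaves out C4, which was 35.7% of the macrophages of sponge at 2 weeks. C5 has a weight of 11.1% in it but was 3.35% of the macrophages of silk at 4 weeks. The weighted value of that library thus leans on 35 C5 cells with 38 Fcna UMIs.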

How the results depend on the processing

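All 308 alternative values of the 28 log2 ratios of a granuloma to the control kept their direction, 65 of them outside the counting interval, and the largest shift was 3.16 for Naip1 in sponge at 2 weeks. Between materials 152 of 168 alternative values kept their direction and over time 159 of 168. Weighted to one makeup of subclusters, Fcna was higher in silk than in sponge at 2 weeks, by 0.37. Ednrb of silk at 4 weeks rose from 14 to 65.1 CPM by this weighting. It was then above sponge at 4 weeks (23.8 CPM) and silk at 2 weeks (35.9 CPM), opposite to the plain levels. Padi4 at 4 weeks went from 1.89 CPM in silk against 1.78 in sponge to 1.71 against 2.36 CPM. The count of members at least 2-fold lower in silk at 2 weeks was 5 as reported and 2 without C5 or with one makeup. These counts run over all 7 members with no UMI limit. Without C5 the 2 were Cd5l and Wfdc17. With one makeup they were Cd5l and Gata6, with Gata6 at 0.1045 CPM in sponge and 0.0264 CPM in silk. These values rest on 1 UMI each in C5 and C6 of sponge and 2 UMIs in C7 of silk. The 3 sponge UMIs in C4 and the 2 silk UMIs in C1 fall outside that makeup, so the Gata6 count is not read as a difference. For silk at 4 weeks the count was 1 and, without C5, 2. From 2 to 4 weeks in sponge it was 5 as reported and 3 without C5, with one makeup or without cells holding markers of another class. In silk over time it was 1 and, without C5, 3. No share of all genes was taken without C5, with one makeup or without cells holding markers of another class. The changes in these counts are therefore descriptions. With no CPM limit the genes called over all genes were 667 against 88 for the 4 granulomas, 1130 against 149 and 481 against 19 for silk against sponge at 2 and 4 weeks, and 804 against 130 and 433 against 30 over time in sponge and silk, because more genes enter. Leaving out cells with other-class markers removed 4921 of 7113 macrophages in sponge at 2 weeks. Weighting granuloma levels to the control's makeup, or to the mean makeup of the 5 libraries, was not run, since outside C9 only C8 and shallow C1 cells are shared, and no subcluster other than C9 had 50 cells in both the control and a granuloma. No paired analysis was possible because each group has 1 library. The silk 4-week library, with 1045 macrophages, limits what can be seen there.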
